A study of Mus musculus with 6 samples.

Results

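The genes described here are 39 genes of glycolysis and of the hypoxia response, chosen by symbol from lists of glycolytic enzymes and of targets and regulators of the hypoxia-inducible factor HIF. All 39 have a row in the deposited table of 21878 rows. They comprise 17 glycolytic enzymes, 4 transporters of glucose and lactate, 3 kinases that set the flux through glycolysis or into mitochondria, 4 genes of HIF and its hydroxylases, and 11 other HIF targets. RNA was sequenced from Neuro-2a cells, a mouse neuroblastoma line of sympathetic character, in 6 libraries that form 3 groups of 2: cells overexpressing the long noncoding RNA lncPim1, cells in which lncPim1 was lowered by RNA interference (knockdown), and controls labelled wild type. The labels name no empty vector, scrambled RNA, oxygen level, medium or time for these groups. Nothing in the labels tells if both libraries of a group are from different cultures, and the p-values here therefore cover just their spread, possibly a technical one. lncPim1 itself was not analysed here, so the labels were not checked on the targeted RNA.

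Glycolysis splits glucose into pyruvate in the cytosol, and lactate dehydrogenase turns pyruvate into lactate when mitochondria do not take it up. HIF is a dimer whose alpha subunit is hydroxylated by prolyl hydroxylases in the presence of oxygen and then degraded through the VHL ubiquitin ligase. When the alpha subunit is stable, HIF binds hypoxia response elements and raises the transcription of glucose transporters, most glycolytic enzymes, pyruvate dehydrogenase kinase and secreted factors such as VEGF.

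Summed FPKM (fragments per kilobase of transcript, scaled to the number of mapped fragments) was 294510 and 303139 in the overexpression libraries, 277508 and 272528 in the knockdown libraries, and 298032 and 305463 in the control libraries. The table gives no counts, so the depth is unknown. Of 13 markers of the sympathetic neuroblastoma identity, 12 averaged 1 FPKM or more, with Dbh below it. The sum of the 13 was 909 to 988 FPKM under overexpression, 741 to 760 under knockdown and 1044 to 1077 in controls. Under knockdown 8 of the 12 were called lower, where 31.3% of all tested genes were. Th was called higher there, with 11.9 and 9.32 FPKM, against 4.99 and 4.67 in controls. Sums of 8 macrophage or microglia markers lay at 4.97 to 5.16 FPKM under overexpression, 9.25 to 9.44 under knockdown and 6.86 to 7.47 in controls, and those of 6 fibroblast markers at 1.11 to 1.495 FPKM over all libraries. Within the macrophage list, Cd68 had 0.528 and 0.57 FPKM under overexpression, 3.31 and 4.31 under knockdown and 0.348 and 0.397 in controls, and was called higher under knockdown. Tyrobp had 0.643 and 0.35 FPKM under knockdown and 0.123 and 0 in controls, Lyz2 had 5.10 and 4.60 and was called lower against 6.96 and 6.39 in controls, and Ptprc did not exceed 0.0188 FPKM in any library. The sum of 10 digestive-tract transcripts was 23.7 to 34.3 FPKM under overexpression, 0.547 to 0.623 under knockdown and 22.8 to 30.0 in controls. Reg1, Reg3b, Prap1, Fabp1, Tff2, Defa24 and Zg16 stood at 0 in both knockdown libraries and above 0 in all others. The source of these transcripts was not tested. The sum of 5 proliferation markers was 457 to 470 FPKM under overexpression, 378 to 392 under knockdown and 500 to 509 in controls. The part of these differences in the results below was not tested. In bulk RNA fewer cells of a type and less RNA per cell cannot be told apart, nor can the treatment and any difference in handling between the groups.

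The levels of the glycolytic enzymes spanned a wide range. Ldha, the lactate dehydrogenase subunit that favours lactate production, was the highest member with 437 and 452 FPKM under overexpression, 359.6 and 356 under knockdown and 454 and 464 in controls. Its partner Ldhb, the subunit that prevails in oxidative tissues, was listed at 0 in all 6 libraries, and a listed 0 in a table without counts can also be a failed estimate. Gapdh, the dehydrogenase of the middle of the pathway and usually among the highest mRNAs of a cell, stood at only 0.789 and 1.35 FPKM under overexpression, 1.01 and 0.887 under knockdown and 1.00 and 0.964 in controls. By comparison Pgk1, the kinase of the next step, had 178 ± 9.55 FPKM in controls (mean ± SD, n = 2).

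The annotation holds 78 other genes, 75 of them pseudogenes, with at least 95% identity to the Gapdh transcript over at least 200 bases. Only 2 of the 78 have a row in the table, and the means of these rows over the 6 libraries sum to 0.034 FPKM. No source used here tells how reads with several positions were handled, so the Gapdh value is uncertain, and the part of the copies in it was not tested. Eno1 also has a near-identical gene that could share its reads: Eno1b, 99.5% identical over 1736 bases, had a mean of 124.0 FPKM over the 6 libraries.

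Where isoforms are paired, 1 of them prevailed in all libraries. Aldoa, the ubiquitous aldolase, was 201 and 172 times as high per length as the brain aldolase Aldoc in the overexpression libraries, 68.5 and 80.6 times in the knockdown libraries and 192 and 254 times in the control libraries. Aldoc lay at 0.66 to 2.56 FPKM over all libraries, so these ratios rest on low values. For the enolases, the ratio of Eno1, the ubiquitous form, to Eno2, the neuron-specific form, was 19.2 and 19.2 under overexpression, 8.80 and 11.04 under knockdown and 17.4 and 17.5 in controls. Both ratios of the knockdown libraries lay below all those of the other 4 libraries. Hk1, the constitutive hexokinase, exceeded Hk2, the inducible and HIF-responsive form, whose level was 0.44 and 0.387 times that of Hk1 under overexpression, 0.463 and 0.521 under knockdown and 0.356 and 0.394 in controls. Phosphofructokinase mRNA was mostly of the platelet type Pfkp, ahead of the muscle type Pfkm and the liver type Pfkl: in controls Pfkp had 50.6 and 54.1 FPKM, Pfkm 31.3 and 31.3 and Pfkl 16.1 and 16.1. Such ratios within a library do not depend on its total.

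Of the 39 genes, 33 averaged 1 FPKM or more over all 6 libraries and were tested with all other genes, 10721 in all, on the log2(FPKM + 1) scale. The genes that did not pass were Ldhb, Pfkfb4, Ankrd37, Car9, Egln3 and Epas1. Pfkfb4, a regulator of fructose-2,6-bisphosphate, was nearest to passing with 0.966 and 0.919 FPKM under overexpression, 0.879 and 1.10 under knockdown and 0.858 and 0.954 in controls. Ankrd37, an ankyrin repeat gene that hypoxia induces, had 0.441 and 1.02 FPKM under overexpression, 0.513 and 0.855 under knockdown and 0.86 and 0.713 in controls, and the groups overlapped. Car9, a cell surface carbonic anhydrase that hypoxic tumours express highly, stayed at or below 0.25 FPKM, and Egln3, a HIF-induced prolyl hydroxylase, at or below 0.281. Epas1, which encodes the second HIF alpha subunit, HIF-2 alpha, did not exceed 0.0276 FPKM. Over the 6 libraries Gapdh averaged 1.00 FPKM, just inside the filter, and Pfkfb4 0.947, just outside it. Aldoc, Pdk1 and Adm had control means below 1 FPKM and passed through their higher level under knockdown.

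**Figure D1:**
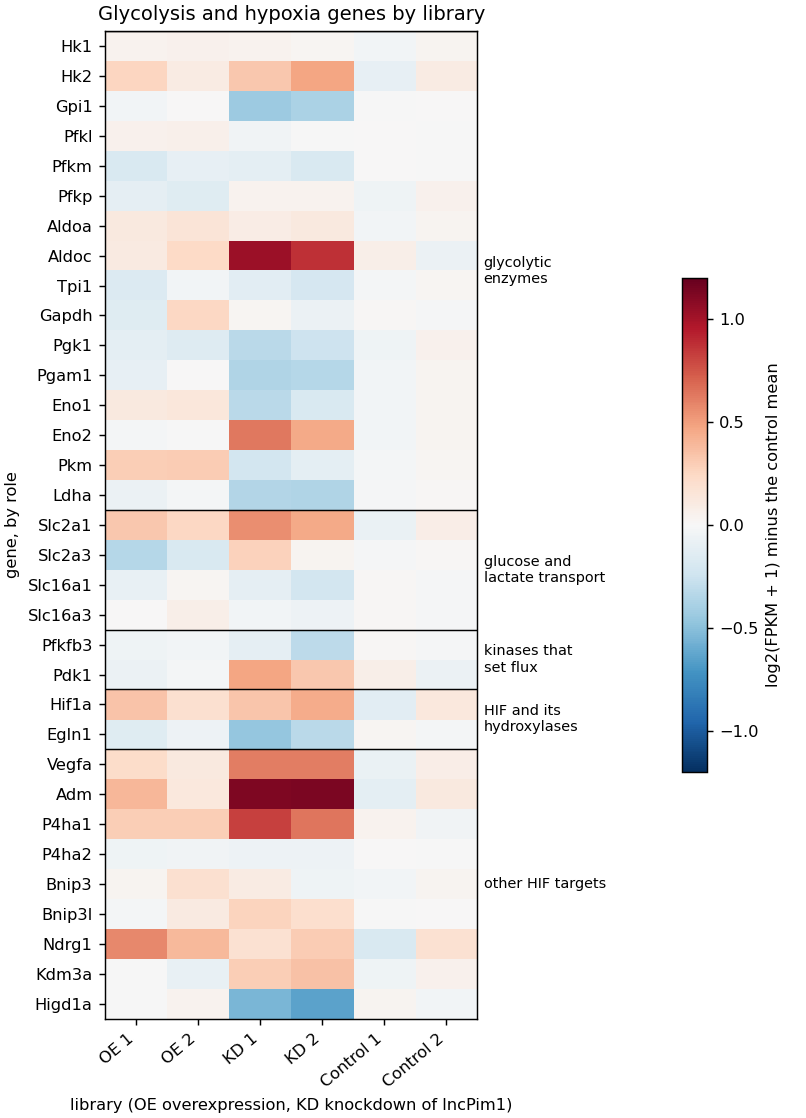
Level of each of the 33 tested genes (rows, by role) in each of the 6 libraries (columns) as log2(FPKM + 1) minus the mean of the 2 control libraries. Under knockdown Adm, Aldoc, P4ha1, Vegfa and Eno2 stand higher and Higd1a, Gpi1, Egln1, Ldha and Pgam1 lower than in both other groups, and most genes differ little under overexpression.

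To ask what lowering lncPim1 changed, knockdown cells were compared with control cells. Among HIF targets outside the glycolytic chain, the secreted factors Adm and Vegfa, the collagen prolyl hydroxylase P4ha1 and the glucose transporter Slc2a1 rose most, while most of the abundant glycolytic enzymes fell by smaller amounts. Of the 16 tested glycolytic enzymes, 3 were higher, 8 lower and 5 not called by limma with Benjamini-Hochberg adjustment over all tested genes. Of the 17 other tested members, 8 were higher, 3 lower and 6 not called. Aldoc, Pdk1 and Adm, which are among the higher genes, passed the filter through the knockdown libraries and so had to differ. The median log2 fold change was -0.09 over the tested enzymes and 0.23 over the other tested members, beside -0.07 over all tested genes. Over all tested genes 46.2% were called, 14.8% higher and 31.3% lower, so calls were common in this comparison. Under scaling by the median log ratio the enzymes split into 4 higher and 5 lower and the other members into 9 and 2, and after quantile normalization into 6 and 3 and into 10 and 2. In these fits the higher calls made up 65.0% and 76.2% of all member calls, in place of 50.0%. Over all genes that share was 47.1% and 46.6%, in place of 32.1%.

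Gpi1, the isomerase of the second step, had the largest fall among the enzymes. It stood at 77.3 and 80.3 FPKM in the knockdown libraries, against 104 and 105 in the control libraries, a log2 fold change of -0.41 ± 0.05 (SE; limma, adjusted p = 3.31e-04). Ldha fell by 0.36 ± 0.05 on the log2 scale to the values given above (limma, adjusted p = 6.19e-04), and its knockdown libraries lay below all others. Pgam1, the mutase of lower glycolysis, had 96.8 and 98.5 FPKM under knockdown and 122 and 128 in controls, a log2 fold change of -0.35 ± 0.05 (limma, adjusted p = 0.00102). For these 3 enzymes the groups did not overlap, and the call held under every alternative tried. The share of all tested genes whose groups stood apart was computed only for overexpression against control. Groups that stand apart in the comparisons with knockdown, here and below, therefore have no background beside them.

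The next enzymes fell less. Pgk1, which makes ATP in lower glycolysis, had 143 and 150.3 FPKM under knockdown, against 172 and 185 in controls (log2 fold change -0.28 ± 0.05; limma, adjusted p = 0.00346). Eno1 had 272 and 301 FPKM under knockdown and 333 and 349.5 in controls (-0.25 ± 0.06; limma, adjusted p = 0.00814), and its value is uncertain because of Eno1b. Pkm, the pyruvate kinase of the last step, had 196 and 209.6 FPKM under knockdown and 225 and 232 in controls (-0.17 ± 0.05; limma, adjusted p = 0.0232). Tpi1, the triose phosphate isomerase, had 201 and 191 FPKM under knockdown and 216 and 223 in controls (-0.16 ± 0.06; limma, adjusted p = 0.0456), and Pfkm had 28.7 and 27.4 FPKM under knockdown and 31.3 and 31.3 in controls (-0.15 ± 0.05; limma, adjusted p = 0.0435). The groups did not overlap for any of these 5 genes.

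These smaller falls depended on the processing. Those of Pgk1 and Eno1 were not called after quantile normalization (limma, adjusted p = 0.308 and 0.168). Scaled by the median log ratio, Pkm, Tpi1 and Pfkm missed the threshold (limma, adjusted p = 0.138, 0.213 and 0.243), and Pkm and Tpi1 turned to log2 fold changes of 0.02 and 0.04 after quantile normalization. The number of enzymes called, 11, fell to 7 without control 1, without control 2 or without knockdown 1.

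Each of the 3 enzymes that rose under knockdown is the less abundant isoform of its pair. Aldoc had 2.56 and 2.21 FPKM under knockdown, against 0.839 and 0.66 in controls (log2 fold change 0.95 ± 0.10; limma, adjusted p = 2.83e-04). It passed the filter through the knockdown libraries and so had to differ. Eno2 had 30.9 and 27.2 FPKM under knockdown and 19.2 and 20.02 in controls (0.55 ± 0.07; limma, adjusted p = 4.30e-04). Hk2, which phosphorylates glucose on entry, had 18.6 and 20.6 FPKM under knockdown and 13.5 and 15.7 in controls (0.40 ± 0.09; limma, adjusted p = 0.00626), a call that was lost without control 1 (limma, adjusted p = 0.05004). The groups of all 3 genes stood apart. The enzymes not called were Hk1, Pfkl, Pfkp, Aldoa and Gapdh, with log2 fold changes of -0.03 ± 0.13 for Gapdh to 0.11 ± 0.05 for Aldoa. Summed over the 17 enzymes, FPKM was 2016 and 2069 under overexpression, 1712 and 1752 under knockdown and 1956 and 2033 in controls. Of the library's summed FPKM that is 0.685% and 0.683% under overexpression, 0.617% and 0.643% under knockdown and 0.656% and 0.665% in controls.

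A high level and a fall went together in this comparison, for the members as for other genes. Of the 7 members with a mean of at least 100 FPKM, all of them enzymes, 6 were lower and 0 higher under knockdown, and of all 466 tested genes at that level 53.4% were lower and 4.08% higher. Of the 14 members with a mean under 20 FPKM, 8 were higher and 2 lower, and 3 of these 8 are Aldoc, Pdk1 and Adm. Of the 7821 tested genes below that level 17.2% were higher and 23.6% lower, so there the members did not follow the other genes. An annotated gene with at least 95% identity over at least 200 bases was found for 7 of the 8 lower enzymes, all but Pfkm, for 0 of the 3 higher ones and for 2 of the 5 not called, Pfkp and Gapdh. Among the other members it was found for 1 of 8 higher, 1 of 3 lower and 2 of 6 not called, and the share over all genes was not computed. For Pfkp and Ndrg1 the gene found, Pitrm1 and Gm17035, overlaps the member itself on the opposite strand. The part of the genes found in these calls was not tested.

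**Figure D2:**
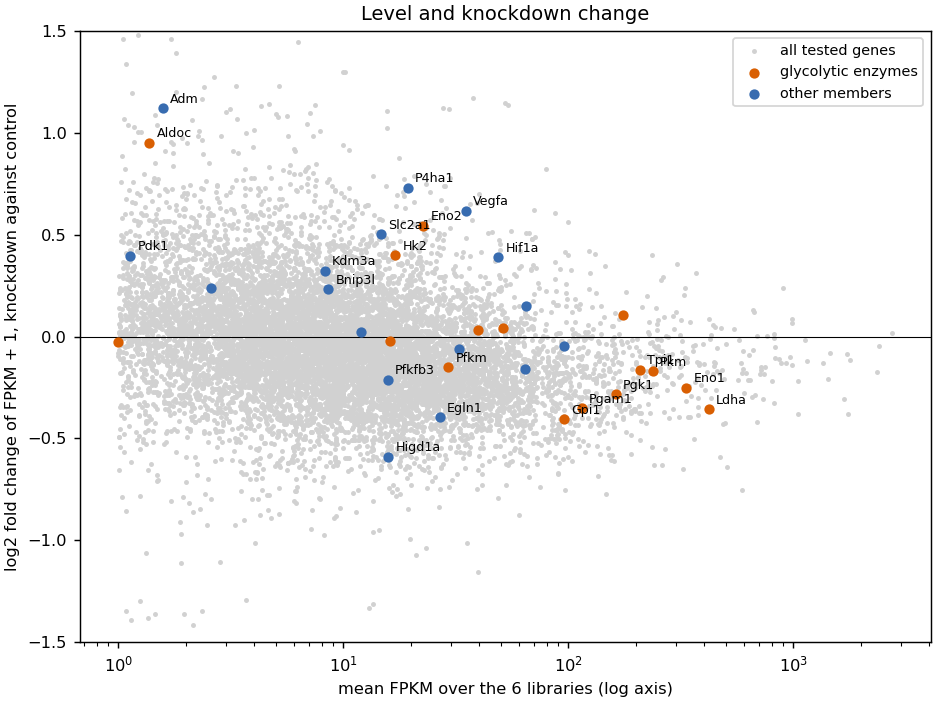
Log2 fold change of FPKM + 1, knockdown against control (vertical axis, which leaves out grey genes beyond its range), against the mean FPKM over the 6 libraries (horizontal log axis) for all tested genes (grey), glycolytic enzymes (orange) and the other members (blue); names mark called members. The enzymes above 100 FPKM lie below 0 except Aldoa, and Adm, Aldoc, P4ha1 and Vegfa lie highest.

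Of the transporters of glucose and lactate, Slc2a1 was the only one called. Slc2a1, which encodes the widely expressed glucose transporter GLUT1 and is a HIF target, had 18.03 and 16.7 FPKM under knockdown, against 11.3 and 12.7 in controls, without overlap. Its log2 fold change was 0.50 ± 0.07 (limma, adjusted p = 7.72e-04). Slc2a3, which encodes the neuronal transporter GLUT3 and was several times higher per length, had 80.2 and 67.6 FPKM under knockdown and 65.7 and 66.7 in controls and was not called (0.15 ± 0.08; limma, adjusted p = 0.163). The lactate carriers were both abundant: Slc16a3, whose protein MCT4 exports lactate from glycolytic cells, had 93.5 and 92.0 FPKM under knockdown and 96.6 and 94.8 in controls (-0.05 ± 0.05; limma, adjusted p = 0.455). Slc16a1, which encodes MCT1, had 62.4 and 57.5 FPKM under knockdown and 67.7 and 66.6 in controls (-0.16 ± 0.06; limma, adjusted p = 0.0503). Neither carrier was called, though Slc16a1 lay at the threshold and passed in 5 alternatives. Slc2a3 passed as higher under both other scalings (limma, adjusted p = 0.0493 and 0.0136), and Slc16a3 turned to a log2 fold change of 0.15 after quantile normalization (limma, adjusted p = 0.0187).

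Of the kinases that direct flux, Pdk1 and Pfkfb3 were tested. Pdk1, the pyruvate dehydrogenase kinase by which HIF keeps pyruvate out of mitochondria, had 1.69 and 1.43 FPKM under knockdown and 1.04 and 0.845 in controls (log2 fold change 0.40 ± 0.10; limma, adjusted p = 0.0129). Pfkfb3, which makes the activator of phosphofructokinase, had 15.4 and 13.2 FPKM under knockdown and 16.8 and 16.6 in controls (-0.21 ± 0.07; limma, adjusted p = 0.0364). The groups of both stood apart, but neither call held throughout. Pdk1 passed the filter through the knockdown libraries and so had to differ, and it was not called without control 2 or knockdown 1 (limma, adjusted p = 0.0881 and 0.0769). Pfkfb3 missed the threshold in 10 alternatives, among them both other scalings, no filter and either control left out, and without knockdown 2 its log2 fold change was -0.11 (limma, adjusted p = 0.194).

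In the HIF machinery itself, the mRNA of the alpha subunit was higher and that of its main hydroxylase lower. Hif1a had 52.7 and 56.7 FPKM under knockdown and 37.9 and 45.3 in controls, a log2 fold change of 0.39 ± 0.09 (limma, adjusted p = 0.00696). Egln1, which encodes the oxygen-sensing prolyl hydroxylase PHD2, had 21.4 and 23.8 FPKM under knockdown and 30.5 and 29.5 in controls (-0.40 ± 0.06; limma, adjusted p = 0.00145). Egln1 is itself a HIF target in many cells, and here it moved opposite to Adm and Vegfa. Neither gene overlapped between the groups, and both calls held under every alternative tried. HIF-1 alpha is set mainly at the protein level, which these libraries do not measure. No source used here names the strand setting of the counting. A gene on the opposite strand overlaps 4 of the 11 members called higher, Hk2, Slc2a1, Hif1a and Adm. It overlaps 5 of the 11 called lower, Gpi1, Pfkm, Tpi1, Pfkfb3 and Higd1a. Of the tested members not called, Hk1, Pfkp, Aldoa, Gapdh, Bnip3 and Ndrg1 have such a partner too, and the share over all genes was not computed. The kit was stranded, but if the counting used the strand is unknown. Reads of these genes and of their partners may therefore have been mixed, which was not tested.

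Of the 9 tested HIF targets outside glycolysis, 5 were higher and 1 lower under knockdown, where 14.8% of all tested genes were higher and 31.3% lower. Adm is among the 5 and passed the filter through the knockdown libraries. Adm, which encodes the vasodilator peptide adrenomedullin, had 2.83 and 2.85 FPKM under knockdown, against 0.623 and 0.914 in controls (log2 fold change 1.12 ± 0.12; limma, adjusted p = 2.73e-04). Its mean was 3.69 times that of controls, the largest ratio among the tested members, at a low level. P4ha1, a catalytic subunit of collagen prolyl 4-hydroxylase, had 26.7 and 23.5 FPKM under knockdown and 15.2 and 14.2 in controls (0.73 ± 0.07; limma, adjusted p = 1.71e-04). Its paralogue P4ha2 was not called, with 31.9 and 31.8 FPKM under knockdown and 33.5 and 33.2 in controls (-0.06 ± 0.05; limma, adjusted p = 0.287). The ratio of P4ha2 to P4ha1 was 1.197 and 1.35 under knockdown and 2.21 and 2.34 in controls.

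Vegfa, the main angiogenic growth factor and a classical HIF target, had 44.3 and 44.3 FPKM under knockdown, against 27.0 and 30.2 in controls (log2 fold change 0.62 ± 0.06; limma, adjusted p = 2.31e-04). Kdm3a, a histone H3 lysine 9 demethylase, had 9.59 and 9.97 FPKM under knockdown and 7.29 and 7.95 in controls (0.32 ± 0.07; limma, adjusted p = 0.0045). Both rose without overlap of the groups. The mitophagy receptors differed: Bnip3l had 9.73 and 9.27 FPKM under knockdown and 7.89 and 7.99 in controls (0.23 ± 0.07; limma, adjusted p = 0.0194), and Bnip3, often the more strongly HIF-induced of the pair, had 12.4 and 11.2 FPKM under knockdown and 11.3 and 11.9 in controls and was not called (0.02 ± 0.08; limma, adjusted p = 0.821). The Bnip3l call was lost without control 1, control 2 or knockdown 1 (limma, adjusted p = 0.0875, 0.0707 and 0.0925). Ndrg1, a stress-responsive gene that hypoxia and differentiation induce, had 2.40 and 2.70 FPKM under knockdown and 1.65 and 2.40 in controls, which overlapped, and was not called (0.24 ± 0.13; limma, adjusted p = 0.15).

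Higd1a, a mitochondrial inner membrane protein that hypoxia induces and that supports respiratory complexes, went the other way. It had 11.9 and 11.1 FPKM under knockdown, against 18.4 and 17.4 in controls, a log2 fold change of -0.59 ± 0.06 (limma, adjusted p = 2.01e-04), the largest fall among the tested members. Its opposite-strand partner Gm47112 is identical to it over 683 bases. Hypoxia-inducible genes did not share a direction: Adm, Vegfa, P4ha1, Slc2a1, Kdm3a, Pdk1 and Bnip3l were higher, Higd1a, Egln1, Ldha, Pgk1 and Eno1 lower, and Bnip3, P4ha2, Slc16a3 and Ndrg1 not called. Under knockdown 13 of the 22 called members stayed called under every alternative in which they were tested. Higher among them were Adm, Aldoc, Eno2, Hif1a, Kdm3a, P4ha1, Slc2a1 and Vegfa, and lower were Egln1, Gpi1, Higd1a, Ldha and Pgam1. Adm and Aldoc passed the 1 FPKM filter through the knockdown libraries and were not tested with the filter at 5 FPKM.

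**Figure D3:**
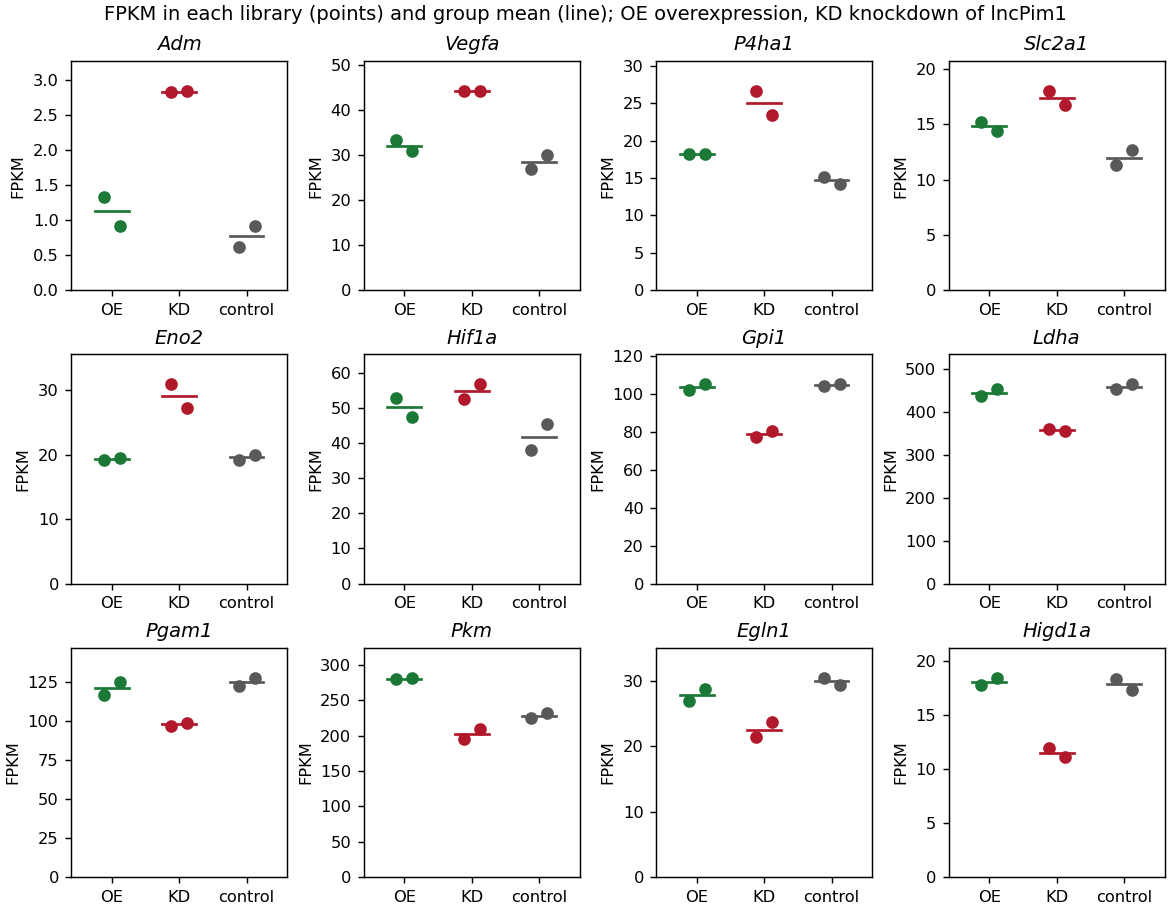
FPKM of 12 members in each library (points; vertical axes from 0) with group means (lines) for overexpression, knockdown and control, 2 libraries each. Adm, Vegfa, P4ha1, Slc2a1 and Eno2 are highest under knockdown, Gpi1, Ldha, Pgam1, Pkm, Egln1 and Higd1a are lowest there, and Pkm is highest under overexpression.

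The promoters of called members are shown because genes that rose and genes that fell under knockdown both carry the letters of the hypoxia response element, whose core is ACGTG or GCGTG. Shown are the 250 bases before the annotated start, 5′ to 3′ on the gene's strand, from RefSeq on build GRCm38.p6, with ACGTG on either strand in capitals (CACGT where it lies on the opposite strand). The first 3 rose under knockdown and the last 3 fell. They lie at chr10:59323046-59323295 (P4ha1, plus strand), chr4:119108495-119108744 (Slc2a1, plus), chr6:82774455-82774704 (Hk2, minus), chr7:46845554-46845803 (Ldha, plus, the upstream of 2 starts), chr19:41911621-41911870 (Pgam1, plus) and chrX:106186850-106187099 (Pgk1, plus).
P4ha1: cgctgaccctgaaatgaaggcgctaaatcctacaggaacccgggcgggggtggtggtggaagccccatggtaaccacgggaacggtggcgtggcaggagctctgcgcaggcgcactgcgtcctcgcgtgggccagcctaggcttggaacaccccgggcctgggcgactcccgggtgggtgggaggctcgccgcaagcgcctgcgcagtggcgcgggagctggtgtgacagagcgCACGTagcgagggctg
Slc2a1: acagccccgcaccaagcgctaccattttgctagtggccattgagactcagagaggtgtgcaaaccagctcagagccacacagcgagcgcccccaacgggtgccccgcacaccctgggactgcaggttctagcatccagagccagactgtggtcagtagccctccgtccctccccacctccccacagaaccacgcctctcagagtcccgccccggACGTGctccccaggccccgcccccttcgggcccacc
Hk2: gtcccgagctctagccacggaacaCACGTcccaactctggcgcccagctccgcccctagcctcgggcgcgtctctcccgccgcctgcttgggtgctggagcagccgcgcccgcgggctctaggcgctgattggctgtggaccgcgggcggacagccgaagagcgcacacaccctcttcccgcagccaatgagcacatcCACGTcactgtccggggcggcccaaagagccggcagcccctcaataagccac
Ldha: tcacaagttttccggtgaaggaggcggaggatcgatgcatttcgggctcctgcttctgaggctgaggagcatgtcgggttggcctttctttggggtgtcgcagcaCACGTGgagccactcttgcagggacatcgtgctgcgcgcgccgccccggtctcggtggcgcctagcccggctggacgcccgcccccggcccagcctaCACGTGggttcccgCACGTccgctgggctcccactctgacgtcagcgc
Pgam1: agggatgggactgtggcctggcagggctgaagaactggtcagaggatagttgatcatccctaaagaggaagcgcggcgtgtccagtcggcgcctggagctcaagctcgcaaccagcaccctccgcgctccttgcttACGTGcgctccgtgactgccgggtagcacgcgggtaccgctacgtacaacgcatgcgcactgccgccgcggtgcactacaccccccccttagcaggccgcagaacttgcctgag
Pgk1: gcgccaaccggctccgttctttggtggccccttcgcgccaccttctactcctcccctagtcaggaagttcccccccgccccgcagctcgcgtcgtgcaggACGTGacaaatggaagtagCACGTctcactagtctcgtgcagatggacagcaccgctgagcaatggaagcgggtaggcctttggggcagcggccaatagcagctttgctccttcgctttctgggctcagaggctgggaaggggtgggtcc

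ACGTG lies close to the start of P4ha1 and Slc2a1, with 11 and 31 bases between it and the start, and Hk2 has a match 47 bases away. Ldha holds ACGTG in 3 clusters, and 2 of them read CACGTG, the E-box that MYC and related factors also bind, which matches on both strands. Pgk1 holds 2 matches and Pgam1 holds 1. RefSeq promoters were found for 35 of the 39 genes, 51 windows in all. ACGTG was found in 45.1% of these windows, in 16.6% of all 32851 promoter windows and in 22.1% of those of tested genes, and GCGTG in 54.9%, 28.2% and 46.1%. CACGTG was in 11.8% of member windows, 6.02% of all windows and 8.44% of those of tested genes. Median GC content was 60.4% in member windows and in those of tested genes, and 52.4% in all windows.

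ACGTG was found on both sides of the comparison. Of the 10 members called higher under knockdown that had a window, 5 (50.0%) held it, and of the 11 called lower, 7 (63.6%). Over all genes with a window it was held by 25.7% of those called higher and 25.6% of those called lower. Counted by window, the shares were 33.3% and 47.4% for these members and 21.6% and 21.8% for all genes. Adm, which had the largest ratio, has 2 copies of GCGTG and no ACGTG in its window, and Gpi1, Eno2 and Tpi1 have neither motif. A match is no evidence of binding, and elements outside the 250 bases were not searched.

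The effect of raising lncPim1 was addressed by setting the overexpression libraries against the controls. Among the members only Pkm was called. It stood at 279 and 282 FPKM under overexpression, against 225 and 232 in controls, a log2 fold change of 0.30 ± 0.05 (limma, adjusted p = 0.0328), and the groups did not overlap. That is 1 of 33 tested members, where 1.54% of all tested genes were called, 0.69% higher and 0.849% lower, and 11 members had an unadjusted p under 0.05, as did 17.1% of all tested genes. The median over the tested members was 0.04 on the log2 scale, beside -0.003 over all tested genes. The Pkm call was lost without a filter on low values, without the expression trend, and when either control or either overexpression library was left out (limma, adjusted p = 0.128, 0.0824, 0.235, 0.117, 0.137 and 0.103). Leaving out a library leaves its group with 1, which is then taken to vary like the other groups.

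No other member passed the test. Both overexpression libraries lay above both controls in 12 of the 33 tested members and below both in 9, where this held for 23.3% and 26.2% of all tested genes. Among those above, P4ha1 had 18.3 and 18.2 FPKM, against 15.2 and 14.2 in controls (log2 fold change 0.30 ± 0.07; limma, adjusted p = 0.075), and Slc2a1 had 15.3 and 14.4, against 11.3 and 12.7 (0.29 ± 0.07; limma, adjusted p = 0.0888). P4ha1 was called when only the overexpression and control libraries were fitted (limma, adjusted p = 0.0477). Ndrg1 had 3.46 and 2.92 FPKM under overexpression and 1.65 and 2.40 in controls (0.48 ± 0.13; limma, adjusted p = 0.109), and Hif1a had 52.9 and 47.4 FPKM under overexpression and 37.9 and 45.3 in controls (0.27 ± 0.09; limma, adjusted p = 0.174). Among those below were Egln1, P4ha2, Pgk1 and Slc2a3. Slc2a3 had 51.9 and 58.2 FPKM under overexpression and 65.7 and 66.7 in controls (-0.26 ± 0.08; limma, adjusted p = 0.157). Both comparisons against control share the control libraries, so their values are not independent.

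**Figure D4:**
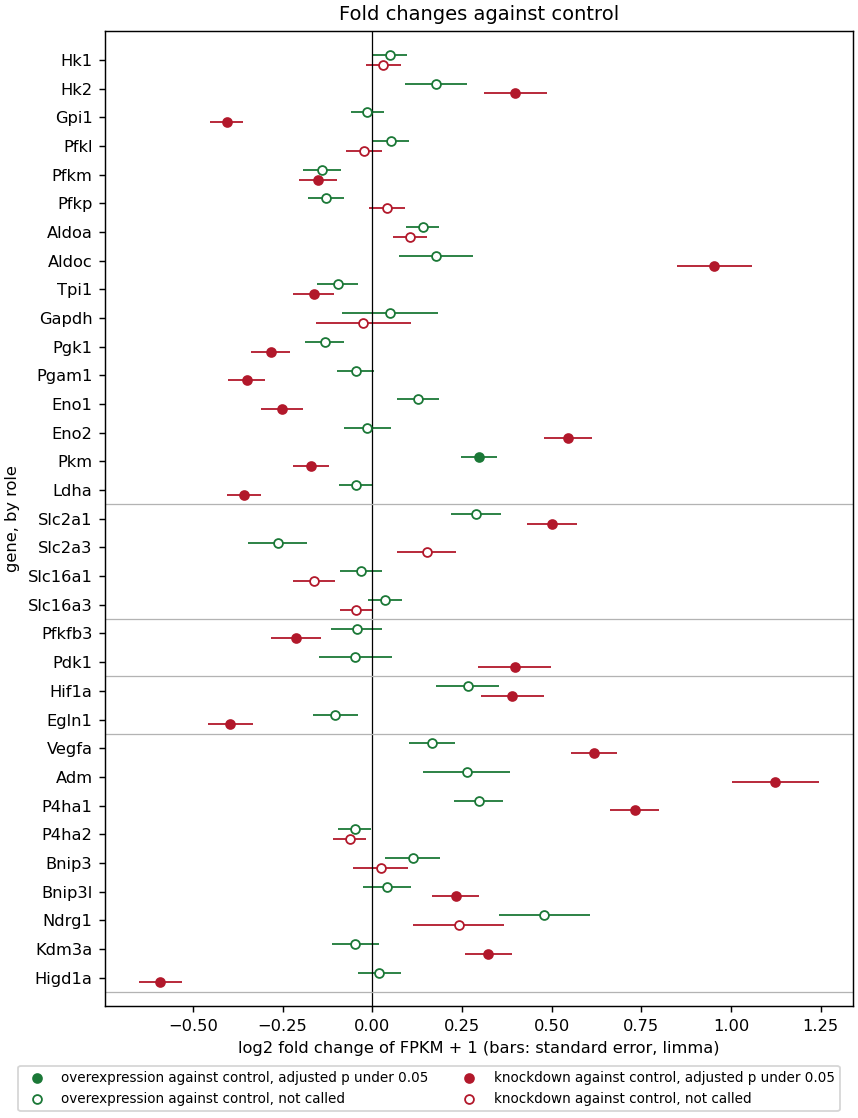
Log2 fold change of FPKM + 1 (horizontal axis) with its standard error from limma (bars) for the 33 tested members (rows, by role), overexpression against control (green) and knockdown against control (red), both from 2 libraries a group; filled points have an adjusted p under 0.05. Under overexpression only Pkm is filled, while 22 members are filled under knockdown, 11 on each side of 0.

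Overexpression was also compared with knockdown directly, which tests whether the 2 groups differ and needs no control library for its fold change. The level of lncPim1 and the way it was changed differ together here and cannot be told apart. Of the 33 tested members, 7 were higher under overexpression than under knockdown and 11 lower, where 40.5% of all tested genes were called, 28.1% higher and 12.4% lower. Members split into 7 higher and 12 lower under scaling by the median log ratio and into 6 and 14 after quantile normalization, and the higher share of all calls was 53.1% in both, in place of 69.3%. Pkm had the lowest adjusted p of the enzymes, with 279 and 282 FPKM under overexpression, against 196 and 209.6 under knockdown (0.47 ± 0.05; limma, adjusted p = 4.83e-04). Gpi1 had 102 and 105 FPKM under overexpression, against 77.3 and 80.3 under knockdown (0.39 ± 0.05; limma, adjusted p = 6.38e-04). Higd1a, outside glycolysis, had 17.8 and 18.5 FPKM under overexpression, against 11.9 and 11.1 under knockdown (0.61 ± 0.06; limma, adjusted p = 3.78e-04), and Egln1 had 27.0 and 28.8 FPKM under overexpression, against 21.4 and 23.8 under knockdown (0.29 ± 0.06; limma, adjusted p = 0.00697). In each of these genes both overexpression libraries lay above both knockdown libraries. Eno1, Ldha and Pgam1 were higher as well, by 0.30 ± 0.05 (Pgam1) to 0.38 ± 0.06 (Eno1) on the log2 scale.

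Lower under overexpression were most of the HIF targets that had risen under knockdown against control, a comparison that uses the same knockdown libraries. Adm had 1.33 and 0.921 FPKM under overexpression, against 2.83 and 2.85 under knockdown (-0.86 ± 0.12; limma, adjusted p = 0.00122). Vegfa had 33.4 and 31.0 FPKM under overexpression, against 44.3 and 44.3 under knockdown (-0.45 ± 0.06; limma, adjusted p = 0.00122), and Eno2 had 19.2 and 19.5 FPKM under overexpression, against 30.9 and 27.2 under knockdown (-0.56 ± 0.07; limma, adjusted p = 6.38e-04). The groups stood apart in these 3 genes. Aldoc (-0.78 ± 0.10), Pdk1 (-0.44 ± 0.10), P4ha1 (-0.43 ± 0.07) and Kdm3a (-0.37 ± 0.07) were lower too. Adm, Aldoc and Pdk1 passed the filter through the knockdown libraries. For Aldoc and Pdk1 the filter fixed the lower level under overexpression. For Adm, with an overexpression mean of 1.13 FPKM, the filter favoured that direction without fixing it. The median over the tested members was 0.03, beside 0.07 over all tested genes.

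A pair of genes that neither comparison against control called differed here. Slc2a3 had 51.9 and 58.2 FPKM under overexpression, against 80.2 and 67.6 under knockdown (-0.42 ± 0.08; limma, adjusted p = 0.00491), with control libraries in between at 65.7 and 66.7. Pfkp had 48.3 and 47.2 FPKM under overexpression, against 53.8 and 53.8 under knockdown (-0.17 ± 0.05; limma, adjusted p = 0.0274). Slc2a1 (-0.21 ± 0.07; limma, adjusted p = 0.0378) and Bnip3l (-0.19 ± 0.07; limma, adjusted p = 0.0462) completed the lower genes. The Slc2a3 call held under every alternative tried, and those of Pfkp, Slc2a1 and Bnip3l did not hold without the expression trend, among other settings. Hif1a did not pass, with 52.9 and 47.4 FPKM under overexpression, against 52.7 and 56.7 under knockdown (-0.12 ± 0.09; limma, adjusted p = 0.284).

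Genes around the pathway, from lists of further enzymes and targets, gave the surroundings of these changes. Of 24 tested genes for the rest of glycolysis and the entry of pyruvate into mitochondria, 3 were higher and 9 lower under knockdown, shares near those of all tested genes, with a median log2 fold change of -0.09. Gpd1, the glycerol-3-phosphate dehydrogenase that draws carbon off glycolysis, had 2.43 and 3.14 FPKM under knockdown and 0.952 and 0.605 in controls (log2 fold change 1.09 ± 0.13; limma, adjusted p = 3.87e-04). Gpd1 passed the filter through the knockdown libraries and so had to differ. Pgm1, named as the table has it and a phosphoglucomutase, was higher (0.56 ± 0.09; limma, adjusted p = 0.00182). Gpd1l, which is related to Gpd1, was lower (-0.34 ± 0.06; limma, adjusted p = 0.00237). Against overexpression, Dlat, a core subunit of pyruvate dehydrogenase, had 29.2 and 31.6 FPKM under overexpression, against 23.9 and 22.6 under knockdown (0.37 ± 0.06; limma, adjusted p = 0.00228), and Tigar, a phosphatase that lowers glycolytic flux, differed likewise (0.38 ± 0.07; limma, adjusted p = 0.00364).

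In the pentose phosphate pathway, which draws glucose 6-phosphate off to make NADPH and ribose, 0 of 9 tested genes were higher and 4 lower under knockdown, where 14.8% of all tested genes were higher and 31.3% lower, and their median was -0.18 on the log2 scale. Pgd, the phosphogluconate dehydrogenase, was called in all 3 comparisons. It had 70.7 and 70.1 FPKM under overexpression, 36.7 and 41.2 under knockdown and 53.9 and 56.3 in controls, so its groups stood in that order of highest, lowest and middle. Against control it rose by 0.35 ± 0.06 on the log2 scale with overexpression (limma, adjusted p = 0.0336). That call was lost without the filter, without the expression trend, with the replicate block and with each control or overexpression library omitted (limma, adjusted p = 0.0541 with the block and up to 0.235). With knockdown its log2 fold change was -0.49 ± 0.06 (limma, adjusted p = 4.48e-04). G6pdx, the glucose 6-phosphate dehydrogenase that opens the pathway (-0.36 ± 0.06; limma, adjusted p = 0.00196), and Taldo1, the transaldolase (-0.18 ± 0.05; limma, adjusted p = 0.019), were lower under knockdown. The Taldo1 call was lost under both other scalings and without control 1, control 2 or knockdown 2.

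Of 13 tested regulators of HIF, 0 were higher and 5 lower under knockdown, with a median of -0.08 on the log2 scale. Rbx1, the RING subunit of the ligase that carries VHL, had 59.9 and 66.1 FPKM under knockdown and 90.0 and 89.4 in controls (-0.50 ± 0.06; limma, adjusted p = 4.33e-04). Tceb1, which encodes elongin C of the same ligase (-0.27 ± 0.06; limma, adjusted p = 0.00499), and Hif1an, the asparaginyl hydroxylase that limits HIF activity (-0.30 ± 0.06; limma, adjusted p = 0.00536), were lower too. Egln2, a further prolyl hydroxylase, had 21.5 and 20.5 FPKM under overexpression, against 16.8 and 18.2 under knockdown (0.25 ± 0.06; limma, adjusted p = 0.0101). Read against 31.3% of all tested genes called lower under knockdown, 5 of 13 is close to the background.

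Among 29 tested further HIF targets, 12 were higher and 5 lower under knockdown, where 14.8% and 31.3% of all tested genes were, with a median of 0.11 on the log2 scale. Ppp1r3c, among the 12, passed the filter through the knockdown libraries. Bhlhe40, a circadian and stress-responsive repressor, had 33.1 and 31.3 FPKM under knockdown and 22.02 and 22.6 in controls (0.51 ± 0.05; limma, adjusted p = 2.23e-04), and Wsb1, a ubiquitin ligase adaptor, had 52.4 and 43.0 FPKM under knockdown and 28.7 and 30.9 in controls (0.65 ± 0.08; limma, adjusted p = 5.57e-04). Fam162a, a mitochondrial protein that hypoxia induces, fell like Higd1a, with 47.6 and 45.0 FPKM under knockdown and 62.5 and 64.3 in controls (-0.45 ± 0.06; limma, adjusted p = 5.32e-04). Pgf, a relative of Vegfa, had 8.08 and 8.87 FPKM under overexpression, against 14.8 and 13.0 under knockdown (-0.65 ± 0.07; limma, adjusted p = 5.92e-04), while Gbe1, the glycogen branching enzyme, was higher under overexpression (0.59 ± 0.09; limma, adjusted p = 0.00182). Under overexpression against control, 0 of these 29 genes were called by limma, with 5 at an unadjusted p under 0.05, where 17.1% of all tested genes were. Many of these genes respond to stimuli other than oxygen as well.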

How the data were processed

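RNA of 6 Neuro-2a libraries was sequenced with a stranded poly(A) kit, per the labels' protocols. The values the authors deposited are FPKM, a row per gene symbol. According to the submitters' processing notes the build was mm10 and the tools included HISAT2, Trimmomatic, HTSeq, Cufflinks and DESeq. The sources used here give no versions, annotation, filters, strand setting or handling of reads with several positions. FPKM is relative to each library's total, so abundant genes that change shift all others, and without counts no interval from counting error can be given. Rows with a mean of at least 1 FPKM were tested (10721, of which 19 carry a date in place of a symbol). Values were transformed as log2(FPKM + 1), which understates changes of low genes. Group means were estimated by limma (version 3.58.1, R version 4.3.3), moderated with an expression trend, on 3 residual degrees of freedom, and p-values were adjusted over all tested genes by the Benjamini-Hochberg method, with 0.05 as threshold. The model was also run on simulated normal values with few genes changed. That setting is unlike the knockdown comparison, with its many calls, and does not test the FPKM scaling. Gene loci and near-identical sequences (blastn of a transcript of each member) come from GENCODE M21 on GRCm38. The members, lists and comparisons were chosen with earlier results of these data known, and 1 marker of the cell line is not reported here. All members were accounted for, and of each neighbouring list the 3 called genes with the smallest p in each comparison were named. Where the text gives a member that was not called, it is for its role in the list, and its alternatives were run too. Alternatives changed the pseudocount (0.1, 0.5), the filter (none, 5 FPKM), the scaling, the moderation, the libraries in the fit and the replicate block.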

Additional observations from a re-analysis of the deposited data

How the results depend on the processing

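Under knockdown against control the count of 22 called members stayed within 1.5 times under every alternative (16 to 22), and so did the 4948 genes called. Under quantile normalization the falls of Pkm and Tpi1 turned to 0.023 and 0.036 on the log2 scale, not called (limma, adjusted p = 0.748 and 0.494), and that of Taldo1 to 0.0060; the cause was not tested. Members that were not called also changed sign. After median log ratio scaling and quantile normalization Pfkl turned to 0.046 and 0.079, Slc16a3 to 0.028 and 0.15 and P4ha2 to 0.0086 and 0.072, Gapdh to 0.010 after the first and Slc16a1 to 0.013 after the second. With a library left out Hk1 lay at -0.0021 to 0.064, Pfkp at -0.0084 to 0.088, Gapdh at -0.071 to 0.019 and Bnip3 at -0.048 to 0.095. Under overexpression against control the number of genes called, 165, was 9 with no filter, 97 without the trend, 66 with the replicate block and 14 to 46 with a control or overexpression library left out, and up to 172 with a knockdown library left out. The number of members called, 1, was 0 with no filter, without the trend and with the replicate block, 2 with only the compared groups, and 0 to 2 with a library left out. The median over tested members under overexpression against control, 0.035, was 0.0029 with a filter at 5 FPKM and -0.0092 to 0.054 with a library left out. Under knockdown against control the median, 0.023, was -0.034 with that filter, 0.092 after median log ratio scaling, 0.155 after quantile normalization and -0.012 to 0.060 with a library left out. Between overexpression and knockdown it was 0.035, against 0.018 with no filter, 0.051 at 5 FPKM, -0.035 and -0.100 after the scalings, and 0.0065 to 0.056 with a library left out.

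With the replicate block 20 of the 22 member calls under knockdown remained, all but Pfkm and Tpi1, and 15 of 18 between overexpression and knockdown. Replicate deviations correlated at -0.211, -0.117 and 0.00692 between pairs of groups, which shows no clear pairing by replicate number. With 2 libraries a group this check could miss a weak pairing, so pairing stays unknown. Depth is unknown, and the 6 genes below 1 FPKM cannot be compared.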
